A study of Mus musculus with 12 samples.

Results

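Kupffer cells are the resident macrophages of the liver. The 10 genes described here are markers of these cells or of macrophages at large, and they were chosen by name from the deposited gene table, out of 24527 gene symbols: Clec4f, Vsig4, Cd5l, Timd4, Marco, C1qa, C1qb, C1qc, Adgre1 and Csf1r. The data were messenger RNA sequencing counts from whole mouse liver at 39 weeks of age, from 12 libraries in 4 groups of 3. IVF females and IVF males came from CF1 females mated with B6SJL males by an in vitro fertilization protocol, and natural females and natural males came from the same cross without it. No group carried an engineered allele or a drug treatment according to the labels, and the labels do not say which animals shared a litter. The titles carry codes whose meaning is not given, and those of IVF female 1 and IVF male 2 begin alike, so these 2 libraries may be related. Library totals ran from 6826534 to 27832271 counts.

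Kupffer cells line the liver sinusoids, where they take up bacteria, worn red cells, lipoproteins and cell debris from the blood. They depend on signalling through the CSF1 receptor, and their identity is maintained by transcription factors that include PU.1, LXRα and SPIC and by signals from neighbouring hepatocytes, stellate cells and sinusoidal endothelial cells. Clec4f is a C-type lectin that in the mouse is largely restricted to Kupffer cells. Vsig4 is a receptor for complement C3 fragments. Cd5l is a secreted scavenger protein, Timd4 is a receptor for phosphatidylserine on dying cells, and Marco is a class A scavenger receptor. C1qa, C1qb and C1qc encode the chains of C1q, which starts the classical complement pathway. Adgre1 encodes F4/80, and Csf1r encodes the receptor for CSF1 and IL-34.

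All 10 genes passed the filter on low counts, as did 13204 genes in all. The smallest value of any of them in any library was 51 counts, for Marco in natural female 1. A level of 3 counts corresponded to 0.108 to 0.439 CPM across the libraries, where CPM are counts scaled to the library total and adjusted by the trimmed mean of M-values (TMM), from counting error only. The liver label was checked on the 11 hepatocyte markers tested, which summed to between 90054 and 132023 CPM in the 12 libraries. The smallest libraries by total were IVF female 1 (6826534 counts) and natural female 2 (8056230 counts). Relative to the other 4 female libraries, the mean level of a gene in this pair moved with its GC content: when the tested genes were ranked by GC and divided into 5 equal classes, the median difference on the log2 scale was 0.33 in the class lowest in GC and -0.56 in the highest. Values without these 2 libraries are given beside several results. Libraries are numbered within a group for reference only, and a number pairs no libraries between groups. Where nothing says that libraries came from separate cages or litters, a p-value measures the spread between these libraries.

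In these livers the 10 genes together were lowest in IVF males. Their summed level was 312, 206 and 234 CPM in IVF males 1, 2 and 3. It was 401, 422 and 384 CPM in the natural males. The IVF females had 546, 613 and 415 CPM and the natural females 423, 403 and 521 CPM. The 3 IVF male libraries were thus below all 9 others, and the other 3 groups overlapped. The group means were 251 ± 55.0 CPM in IVF males, 403 ± 19.0 in natural males, 449 ± 63.0 in natural females and 525 ± 101 in IVF females (SD, n = 3 each). Each of the 10 genes had its lowest group mean in IVF males, and 9 had their highest in IVF females, the exception being Marco, highest in natural males. IVF male 2 held the lowest value of the 12 libraries for 8 of the 10 genes. The 3 IVF male libraries were also below all others in summed hepatocyte, sinusoidal endothelial, monocyte, and T and NK cell markers. The monocyte sum did not stand for a shared decrease of its genes. Of the 10 monocyte genes tested, 5 were lower and 5 higher in IVF than in natural males (median log2 fold change -0.0020). For hepatocyte markers the IVF males reached 99556 CPM, and the lowest other library had 108097 CPM. The sums of the other marker lists described below overlapped between IVF males and other groups. In a bulk sample, fewer cells of a type and less RNA per cell cannot be told apart.

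Compared per kilobase of exon, the most abundant transcripts were those of Cd5l and C1qa. Over all 12 libraries the mean level was 44.2 CPM per kb for Cd5l, 41.3 for C1qa, 34.8 for Clec4f and 34.4 for C1qb. Vsig4 followed at 22.2 and C1qc at 18.2 CPM per kb. Csf1r (7.76), Marco (6.96), Timd4 (5.96) and Adgre1 (3.44 CPM per kb) formed the lower part of the order. The SD over libraries was 13.7 CPM per kb for Cd5l, 14.3 for C1qa, 10.6 for Clec4f and 10.3 for C1qb, so the 4 most abundant differed by less than their spread. In the 2 smallest libraries C1qa was below C1qb, at 29.5 against 54.4 CPM per kb in IVF female 1 and 23.4 against 41.1 CPM per kb in natural female 2. The means of Csf1r (SD 2.75), Marco (5.72) and Timd4 (4.73) also differed by less than their spread. Adgre1, with an SD of 1.27, had the lowest mean in every group.

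Clec4f lies on chromosome 6 (83644542 to 83656187, minus strand, GRCm38). It was read at 57.0, 48.2 and 61.6 CPM in IVF males, 92.1, 63.8 and 78.5 in natural males, 122, 134 and 89.2 in IVF females, and 96.1, 83.6 and 106 in natural females. All 3 IVF male values were below the other 9. Vsig4 lies on the X chromosome (96247203 to 96293438, minus strand). Its levels were 17.0, 12.3 and 13.5 CPM in IVF males and 20.8, 24.0 and 20.8 in natural males, against 70.2, 45.3 and 34.6 in IVF females and 34.9, 53.3 and 49.5 in natural females. For Vsig4 every male library was below every female library, and every IVF male below every natural male.

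**Figure D1:**
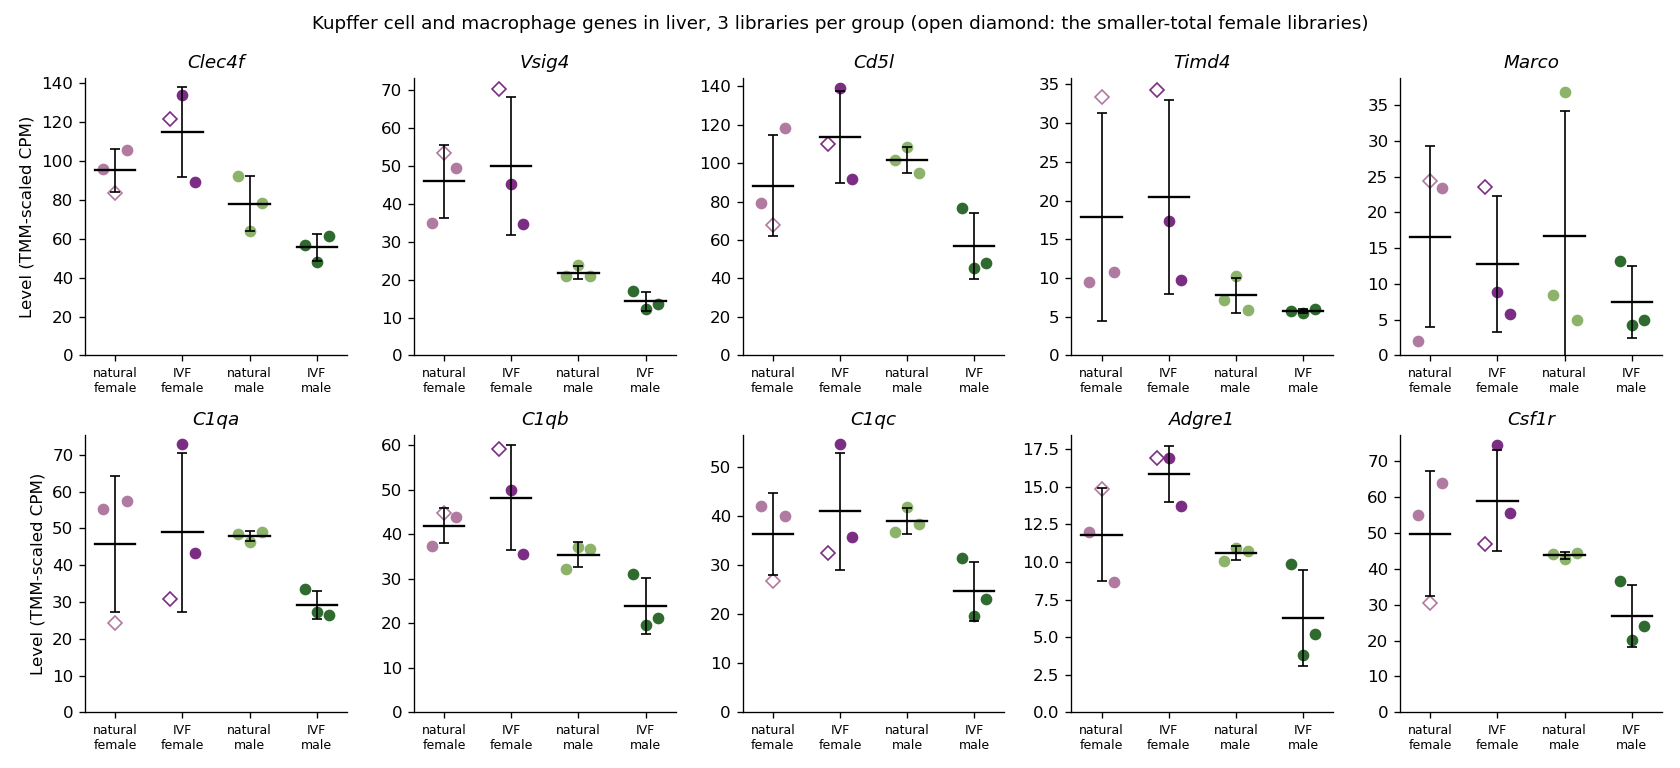
Level of each of the 10 genes in the 12 liver libraries, in TMM-scaled CPM on a linear axis from 0. Points are libraries, lines are group means and bars are SD (n = 3 each; the lower bar of Marco in natural males is longer than its mean and ends at the axis). Open diamonds are the 2 smallest libraries. IVF males had the lowest mean in each of the 10 panels, and Marco and Timd4 spread most among libraries of 1 group.

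RefSeq windows of 250 bases before the transcription start (GRCm38.p6) were read to ask what the promoters of these genes share. They covered 7 of the 10 genes, without C1qa, Adgre1 and Csf1r. They were searched on both strands for GAGGAA, the core bound by the myeloid factor PU.1, and for CATGTG or CACGTG, an E-box read by MITF and TFE proteins. GAGGAA occurred in 5 of 7 windows (Vsig4, Cd5l, Marco, C1qb and C1qc) and in 23.3% of 32851 windows of all genes. The E-box occurred in 3 of 7 (C1qb, C1qc and Timd4) and in 17.6% of all windows. The AP-1 letters TGANTCA occurred in 0 of 7 windows and in 6.7% of all. The C/EBP letters, TTGCNNNAA or TTGCGCAA, occurred in 0 of 7 and in 8.4% of all, and the TATA box letters TATAAA in 0 of 7 and 12.4%. Clec4f held none of the motifs searched. Matches are a description of the letters and not of binding. Of the 4 genes called in a comparison of the sexes, Vsig4, C1qb and Timd4 are shown with their windows. The fourth, Clec4f, is not printed because its RefSeq window reaches into the transcribed gene as GENCODE draws it. The C1qc window, counted above and not printed, reaches into its gene in the same way. Each printed window is written 5′ to 3′ on the gene's strand, and capitals mark GAGGAA, the E-box or their reverse complements. Vsig4 is chrX:96293439-96293688 (minus strand), C1qb is chr4:136886201-136886450 (minus strand) and Timd4 is chr11:46810549-46810798 (plus strand).
Vsig4: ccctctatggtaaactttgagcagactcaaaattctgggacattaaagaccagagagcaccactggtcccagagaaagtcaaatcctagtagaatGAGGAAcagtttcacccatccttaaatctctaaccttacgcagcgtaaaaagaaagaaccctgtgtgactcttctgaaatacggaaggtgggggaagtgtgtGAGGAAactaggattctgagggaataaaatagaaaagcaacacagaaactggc
C1qb: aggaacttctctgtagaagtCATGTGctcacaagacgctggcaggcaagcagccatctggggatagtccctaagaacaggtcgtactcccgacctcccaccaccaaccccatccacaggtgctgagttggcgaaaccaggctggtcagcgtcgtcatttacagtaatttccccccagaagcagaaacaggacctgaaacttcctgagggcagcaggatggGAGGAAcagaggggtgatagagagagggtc
Timd4: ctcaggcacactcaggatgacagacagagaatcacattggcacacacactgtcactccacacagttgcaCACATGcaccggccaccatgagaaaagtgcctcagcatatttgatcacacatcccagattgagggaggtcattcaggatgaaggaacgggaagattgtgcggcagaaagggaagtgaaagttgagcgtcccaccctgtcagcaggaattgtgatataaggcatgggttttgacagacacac
Vsig4 holds GAGGAA in 2 places, starting 155 and 53 bases before the start. C1qb holds it 30 bases before the start, with a CATGTG starting 230 bases before it. Timd4 holds the E-box on the other strand and no GAGGAA.

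Cd5l (chromosome 3, 87357881 to 87371073, plus strand) was at 76.5, 45.4 and 48.2 CPM in IVF males and at 101, 108 and 94.8 CPM in natural males. The IVF females had 109.8, 139 and 91.9 CPM and the natural females 79.4, 67.6 and 118 CPM. IVF males were below natural males without overlap, but IVF male 1 was above natural female 2. Timd4 (chromosome 11, 46810800 to 46844332, plus strand) was at 5.77, 5.51 and 6.01 CPM in IVF males and 7.13, 10.2 and 5.93 in natural males. In females it was at 34.3, 17.4 and 9.70 CPM after IVF and 9.47, 33.3 and 10.7 after natural conception. The values of 34.3 and 33.3 CPM came from the 2 smallest libraries, and without those the female values ran from 9.47 to 17.4 CPM. Marco (chromosome 1, 120474538 to 120505024, minus strand) differed most between libraries of 1 group. It ranged from 2.05 to 24.4 CPM in natural females, from 5.02 to 36.8 in natural males, from 5.86 to 23.6 in IVF females and from 4.18 to 13.2 in IVF males, so that all groups overlapped. The pooled SD within groups was 1.42 on the log2 scale for Marco and 0.70 for Timd4, against a median of 0.383 over all genes tested. The other 8 genes lay between 0.24 for Clec4f and 0.48 for C1qa.

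The 3 C1q genes lie side by side on the minus strand of chromosome 4 within 18.7 kb (136880129 to 136898803, GRCm38). C1qb was at 31.2, 19.6 and 21.2 CPM in IVF males and 32.2, 37.2 and 36.8 in natural males, with 59.2, 49.9 and 35.7 in IVF females and 37.5, 44.7 and 43.8 in natural females. The 3 IVF males were the lowest of the 12 libraries. C1qa was at 33.4, 27.4 and 26.4 CPM in IVF males and 48.4, 46.4 and 49.1 in natural males, and C1qc at 31.3, 19.5 and 23.0 against 36.7, 41.8 and 38.3 CPM. Both were lower in all IVF males than in any natural male. In females C1qa was at 30.7, 72.9 and 43.3 CPM after IVF and 55.4, 24.3 and 57.6 after natural conception. The female values of 30.7 and 24.3 CPM came from the 2 smallest libraries.

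The makeup of the C1q transcripts was nearly constant except in those 2 libraries. In the other 10, C1qa took 41.7 to 48.9% of the summed C1q level per kb, C1qb 31.1 to 37.2% and C1qc 17.8 to 21.5%. In IVF female 1 the shares were 29.3% for C1qa, 54.0% for C1qb and 16.6% for C1qc, and in natural female 2 they were 29.9, 52.5 and 17.7%. Exon GC content is 59.5% in C1qa, 57.4% in C1qb and 57.5% in C1qc. Of the 10 genes, Marco was higher in this pair than in the other 4 female libraries by 1.74 on the log2 scale of mean levels, Timd4 by 1.55 and Vsig4 by 0.59, whereas C1qa differed by -1.04 and Csf1r by -0.71. Over the 10 genes this difference went against GC content (Pearson's r = -0.555, Spearman's rho = -0.588; a correlation across genes measured in the same libraries, given without a test). Timd4 (44.4%) and Vsig4 (44.6%) have the least GC of the 10, but Marco (54.5%) does not. C1qb and C1qc, nearly alike in GC, went opposite ways in this pair, at 0.32 and -0.53.

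**Figure D2:**
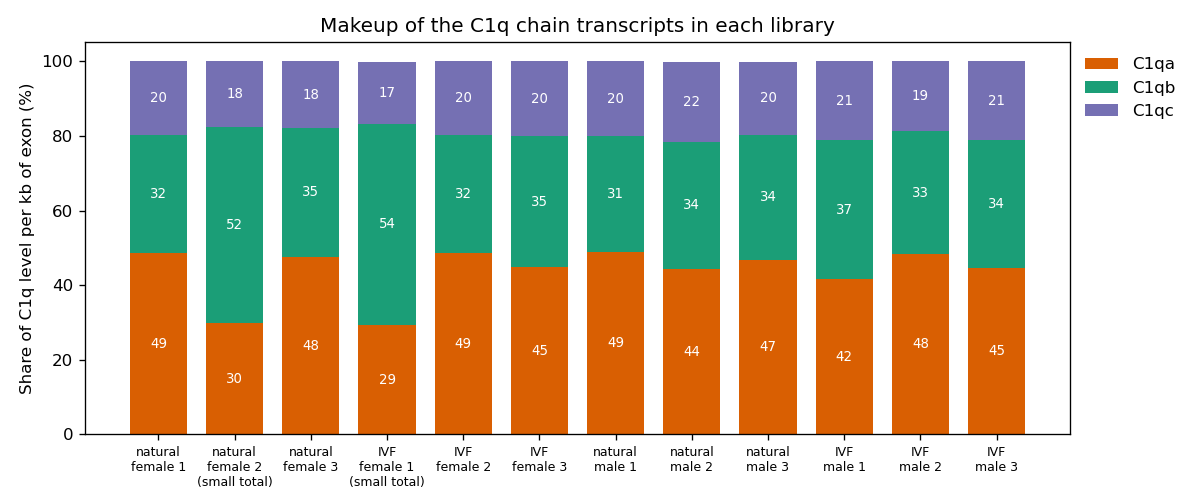
Share of each C1q chain in the summed level per kb of exon of the 3 genes, in percent, for each library. The 2 smallest libraries, marked small total, have C1qb shares of 52.5 and 54.0%, and the other 10 have 31.1 to 37.2%.

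Adgre1 (chromosome 17, 57358691 to 57483527, plus strand) was at 9.89, 3.79 and 5.20 CPM in IVF males and 10.1, 10.9 and 10.8 in natural males, against 16.9, 16.9 and 13.7 in IVF females and 12.0, 14.9 and 8.63 in natural females. The IVF males were below the natural males and IVF females, and overlapped the natural females. Csf1r (chromosome 18, 61100598 to 61132149, plus strand) was at 36.6, 20.1 and 24.0 CPM in IVF males, 44.2, 42.6 and 44.5 in natural males, 46.8, 74.2 and 55.4 in IVF females and 54.8, 30.3 and 63.8 in natural females. The IVF males were again below all natural males, and 1 natural female, the smaller library 2, lay among them. Csf1r shares its locus with Hmgxb3 on the opposite strand and Mir6983 on the same strand. Whether counting used strand is not given in the sources used here, so reads of Csf1r and Hmgxb3 may not be fully separated.

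In males, the 10 genes were lower after IVF than after natural conception, but none passed the test. The median log2 fold change was -0.68, or 1.61-fold lower, with all 10 negative, beside a median of 0.0098 over all 13204 genes. No gene of the 10 reached an adjusted p under 0.05 by edgeR's quasi-likelihood test (adjusted p = 1 for each), where 0.00757% of all genes did, and DESeq2 also called 0. At an unadjusted p under 0.05, 7 of 10 were lower, and 1.48% of all genes were. The libraries did not overlap for 8 of 10, all lower in IVF males, and this held for 4.07% of all genes. The exceptions were Timd4 and Marco. These shares were not tested against each other, because the 10 genes share libraries and were chosen with earlier results of these data known.

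Cd5l had the smallest p of the 10 in males, with a log2 fold change of -0.84 (SE 0.26, 95% interval -1.41 to -0.27). Marco had a log2 fold change of -1.17 with an interval from -3.19 to 0.84, and without natural male 2 the estimate was 0.13. Clec4f (-0.49), Vsig4 (-0.62), C1qb (-0.56), C1qc (-0.66), C1qa (-0.72), Csf1r (-0.70) and Adgre1 (-0.76) lay close together. Both of the smallest libraries are female, and leaving them out gave between -0.85 for Cd5l and -0.43 for Timd4 for all but Marco (-1.19).

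In females, the 10 genes did not differ detectably by mode of conception. The median log2 fold change was 0.20, with 9 positive and Marco negative (-0.40). None was called by edgeR's quasi-likelihood test (adjusted p = 1 for each), none had an unadjusted p under 0.05 and none separated the libraries. Over all genes the shares were 0% called, 3.7% with an unadjusted p under 0.05 and 7.42% without overlap. DESeq2 called 0 of the 10. The widest intervals were those of Marco (-2.41 to 1.61) and Timd4 (-0.91 to 1.30), and the narrowest was that of Clec4f (-0.18 to 0.72). Each female group holds 1 of the 2 smallest libraries, and without them Vsig4 went from 0.12 to -0.064. Averaged over both sexes, the IVF difference was negative for all 10 (median -0.23), with 0 called by edgeR or DESeq2 (0.00757% of all genes by edgeR) and 0 at an unadjusted p under 0.05 (2.69% of all genes).

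The IVF difference in males minus that in females was negative for all 10 genes, with a median of -0.80. It was called for none by edgeR (adjusted p = 0.9999 for each) or by DESeq2, and edgeR called 0% of all genes. At an unadjusted p under 0.05, 6 of 10 were lower, and 2.09% of all genes were. Cd5l was at -1.20 (SE 0.37), Adgre1 at -1.18 (SE 0.44) and Csf1r at -0.95 (SE 0.42). Since this quantity is also the sex difference after IVF minus that after natural conception, no sex difference of these genes is shown to depend on the mode of conception.

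**Figure D3:**
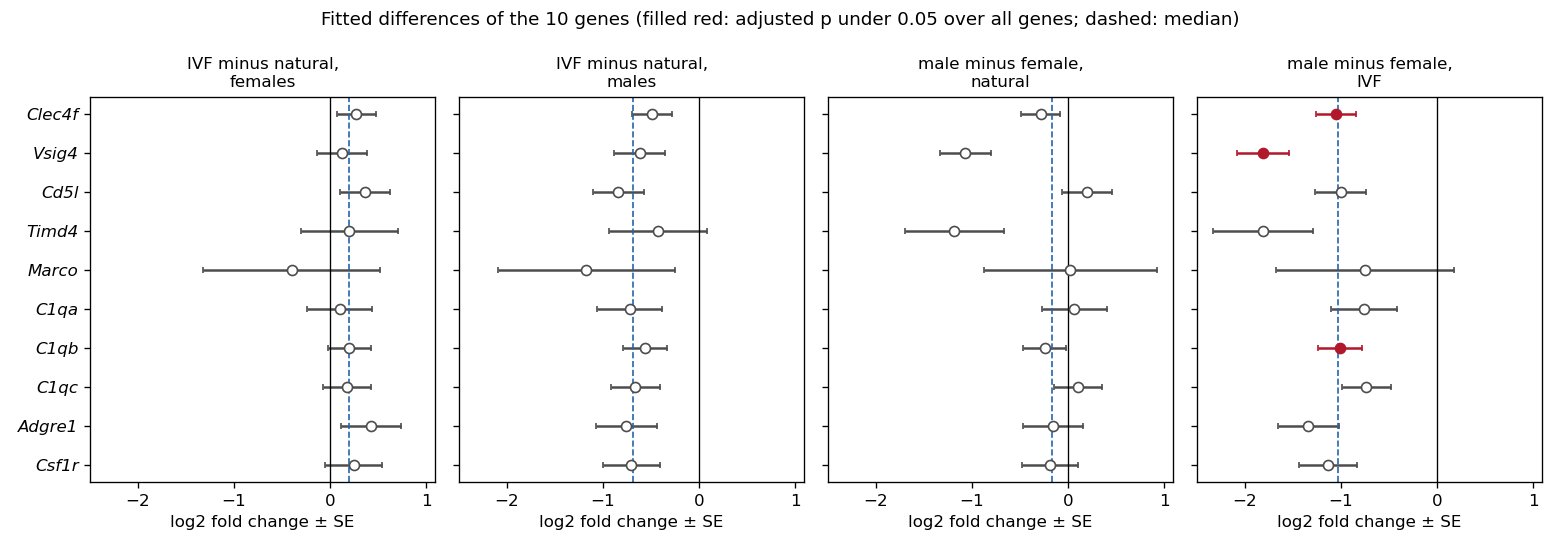
Log2 fold change of each gene in 4 comparisons, with its standard error as a bar; filled red points passed an adjusted p under 0.05 over all 13204 genes, and the dashed line is the median of the 10. All 10 lie below 0 for IVF against natural in males and for male against female after IVF, where Clec4f, Vsig4 and C1qb passed.

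After IVF, Vsig4, Clec4f and C1qb fell in males relative to females. Vsig4 was 3.50-fold lower in males (log2 fold change -1.81, SE 0.27, adjusted p = 0.0039 by edgeR's quasi-likelihood test), Clec4f 2.07-fold (-1.05, SE 0.21, adjusted p = 0.0215) and C1qb 2.01-fold (-1.01, SE 0.23, adjusted p = 0.0433). All 10 genes were negative, with a median of -1.03 beside 0.0077 over all genes. The test called 2.19% of all genes. At an unadjusted p under 0.05, 9 of 10 were lower (7.92% of all genes), and 8 of 10 had no overlap between the libraries (10.1% of all genes). The other 7 genes did not reach the threshold: Adgre1 (-1.34, adjusted p = 0.0568), Csf1r (-1.13, 0.0857), Cd5l (-1.003, 0.0859), Timd4 (-1.81, 0.115), C1qc (-0.74, 0.189), C1qa (-0.76, 0.325) and Marco (-0.75, 0.772).

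The Vsig4 call held in every alternative fit, with an adjusted p of at most 0.0276. The Clec4f call was lost without IVF female 1 or 2 or any 1 of the 3 IVF males (adjusted p = 0.0537 to 0.0933 by edgeR), its log2 fold change staying between -1.20 and -0.92, and in a fit to the 6 libraries compared (adjusted p = 0.0681). C1qb was called in 3 of 12 fits with a library removed, and lost its call without IVF female 1 or 2, IVF male 2 or 3, natural female 1 or 3, or any natural male (adjusted p = 0.0544 to 0.189 by edgeR), as well as in the fit to the 6 libraries compared (0.149) and with a GC offset (0.0501). Without the 2 smallest libraries 4 genes were called, namely Vsig4, Clec4f, C1qa (-1.04, adjusted p = 0.0322) and Csf1r (-1.31, adjusted p = 0.0198), and C1qb was not (-0.87, adjusted p = 0.0813). With a GC offset and without those libraries together, 7 were called.

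After natural conception, Vsig4 and Timd4 had the largest sex differences of the 10, and none was called by edgeR (1.77% of all genes were), while DESeq2 called 1. The median was -0.17, with 6 negative and 4 positive. Vsig4 was 2.10-fold lower in males (log2 fold change -1.07, SE 0.26, adjusted p = 0.0708 by edgeR's quasi-likelihood test), and its male and female libraries did not overlap. Timd4 was at -1.18 (SE 0.51, adjusted p = 0.307), and -0.39 without the 2 smallest libraries. These were the 2 of 10 with an unadjusted p under 0.05 (7.71% of all genes were lower at that level). Vsig4 and C1qb were the 2 genes lower in all natural males than in any natural female (9.85% of all genes). Cd5l (0.20), C1qc (0.10), C1qa (0.064) and Marco (0.025) were on the positive side of 0, each by less than its SE.

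Averaged over both modes of conception, 4 of the 10 genes fell in males relative to females, where 7.2% of all genes were called in either direction. Vsig4 was 2.71-fold lower (log2 fold change -1.44, SE 0.19, adjusted p = 0.000738 by edgeR), Timd4 2.82-fold (-1.49, SE 0.37, adjusted p = 0.0322), Clec4f 1.59-fold (-0.67, SE 0.14, adjusted p = 0.0191) and C1qb 1.54-fold (-0.63, SE 0.16, adjusted p = 0.0376). All 10 were negative (median -0.64), and 6 had an unadjusted p under 0.05 in that direction (12.3% of all genes). The Vsig4 call held in every alternative fit. The Clec4f call was lost without IVF female 2 or natural male 3 (adjusted p = 0.0517 and 0.0516 by edgeR). Timd4 lost its call without IVF female 1 or 2, any IVF male, or natural male 1 or 3 (adjusted p = 0.0556 to 0.087 by edgeR) and with limma voom (adjusted p = 0.0618), and it was at -0.83 (adjusted p = 0.0364) without the 2 smallest libraries. C1qb lost its call without IVF female 1 or 2, IVF male 2 or 3, natural female 2 or 3, or any natural male (adjusted p = 0.063 to 0.097), and also without the 2 smallest libraries (-0.54, adjusted p = 0.0648 by edgeR).

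The levels of most pairs of the 10 genes moved together between libraries of the same group, most closely outside the 2 smallest libraries. Over 12 libraries the median Pearson's r between 2 of the genes was 0.34 (Spearman's rho 0.322), as deviations from the group means of log2 CPM, with 31 of 45 pairs above 0. Without the 2 smallest libraries it was 0.604 (rho 0.588), with 44 of 45 above 0. The pairs of C1q genes then ran from 0.799 to 0.92, and the highest pair was Vsig4 and Cd5l at 0.966. Over 12 libraries the pairs ran from -0.71 (Timd4 and C1qa) to 0.929 (C1qc and Csf1r). These values share libraries and depth and are given without a test. With 2 libraries left in each female group, the deviations of those libraries are equal and opposite. Vsig4 followed the mean of the other 9 genes at r = 0.774 over 12 libraries and 0.972 over 10, while Clec4f reached 0.269 and 0.293. C1qa was at -0.0919 over 12 libraries and 0.665 over 10. The deviations were averaged without scaling, so Marco (pooled SD within groups 1.42) and Timd4 (0.70) weigh most in such a mean. With Marco alone, over 12 libraries, Vsig4 was at r = 0.821, Clec4f at -0.0844 and C1qa at -0.353.

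The genes outside the 10 that were most like their mean deviation over the 12 libraries were Msn (r = 0.967), which encodes moesin, a linker of membrane and actin, and Tmsb4x (0.959), which encodes thymosin β4, a protein that binds actin monomers. They were followed by D630033O11Rik (0.945), Agtrap (0.944), Smtn (0.93), Pkm (0.923), Fcgr1 (0.922) and Rcn1 (0.917). Fcgr1 encodes the high-affinity IgG receptor of monocytes and macrophages. The 95th percentile over 11802 genes was 0.539. Because the deviations were averaged without scaling, Marco and Timd4 weigh most in the mean, and the order does not show likeness to each of the 10 genes. Over the 10 larger libraries Msn was again first (0.987), and the other genes of that order were Dok2, Arhgap4, Trip6, Camk2n2, Gngt2, Slfn2 and Acer3, so the 2 orders had 1 gene in common.

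Other Kupffer cell genes were mostly lower too in IVF males, with a smaller median. Of 14 in a list of Kupffer identity genes, 11 were lower in IVF than in natural males, with a median log2 fold change of -0.32 and 0 called. Folr2, the folate receptor β of tissue macrophages, ranged from 3.60 to 4.53 CPM in the IVF males and from 5.34 to 8.86 CPM in the natural males (-0.82, SE 0.26, adjusted p = 1 by edgeR). Cd163, the haemoglobin scavenger receptor, averaged 24.4 ± 5.11 CPM in IVF males and 36.1 ± 16.3 in natural males, and Clec1b 4.98 ± 0.974 and 6.27 ± 0.807 CPM (SD, n = 3). Spic was at 0.926 ± 0.456 and 1.34 ± 0.615 CPM. Nr1h3, which encodes LXRα and is also active in hepatocytes, averaged 69.7 to 72.3 CPM in all 4 groups. Slc40a1, the iron exporter ferroportin, was at 166 ± 19.3 CPM in IVF males and 179 ± 38.5 in natural males. In the sex comparison after IVF, Folr2 fell in males (-1.33, SE 0.27, adjusted p = 0.0234 by edgeR) as 1 of the 14, and the list's median was -0.98. The Folr2 call was lost without IVF female 1 or 2 or any IVF male (adjusted p = 0.0621 to 0.114), and without the 2 smallest libraries (-1.16, adjusted p = 0.0521 by edgeR; 0.053 with a GC offset as well) or in the fit to the 6 libraries compared (0.0575). In the average over both modes Folr2 (-0.79), Mrc1 (-0.59), the mannose receptor, and Id1 (-1.49) fell by edgeR, and with each library removed in turn they were called in 6, 1 and 3 of 12 fits.

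Among general macrophage and leukocyte genes, Cybb and Ptprc fell in IVF males relative to IVF females. Cybb, the NADPH oxidase subunit gp91phox, was at 10.6 to 15.1 CPM in IVF males and 24.5 to 34.2 in IVF females (-1.32, SE 0.20, adjusted p = 0.00399 by edgeR), a call that held in every alternative fit. Ptprc, which encodes CD45, was at 5.17 to 7.61 and 11.2 to 18.3 CPM (-1.19, SE 0.25, adjusted p = 0.0325), and lost its call without IVF female 1 or 2, any IVF male or natural male 2 (adjusted p = 0.0582 to 0.122 by edgeR), or in the fit to the 6 libraries compared (0.0915). Of 23 genes of this list that were tested, 22 were negative (median -0.74). For IVF against natural males the median was -0.17 with 0 called. There Cd68, a lysosomal membrane protein, averaged 8.08 ± 5.20 and 7.92 ± 0.862 CPM, and Lyz2, which encodes lysozyme, 47.8 ± 30.9 and 48.6 ± 7.54 CPM (SD, n = 3). The scavenger receptor Msr1 (12.9 ± 2.25 and 15.6 ± 3.91 CPM) and the efferocytosis receptor Mertk (16.3 ± 3.76 and 20.4 ± 4.24 CPM) were also not called. Averaged over both modes, Ptprc (-0.95), Cybb (-0.90), Maf (-0.82) and Cd74 (-1.09) fell in males by edgeR. Ptprc and Cybb were called in 12 of 12 fits with a library removed, Maf in 3 and Cd74 in 4.

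None of 10 genes of the CSF1 receptor axis was called in any of the comparisons by edgeR. After IVF, 3 of 10 had an unadjusted p under 0.05 for sex, all 3 lower in males. The ligand Csf1 averaged 8.20 ± 2.37 CPM in IVF males, 8.94 ± 2.74 in natural males, 12.9 ± 0.381 in IVF females and 11.2 ± 0.875 in natural females (SD, n = 3). The other ligand, Il34, averaged between 0.975 and 1.42 CPM. Spi1, which encodes PU.1, averaged 2.95 ± 1.11 CPM in IVF males and 3.11 ± 0.582 in natural males, against 4.89 ± 0.311 and 4.97 ± 1.15 CPM in IVF and natural females. Tyrobp, the adaptor DAP12, averaged 5.32 ± 3.24 CPM in IVF males and 6.56 ± 0.465 in natural males.

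Of 14 other genes of the classical complement pathway, many of them made by hepatocytes, only C4bp was called in any comparison by edgeR. Its calls were for sex after natural conception and for sex averaged over both modes, and not for sex after IVF. C1ra averaged 577 ± 16.6 CPM in natural males and 347 ± 85.1 in natural females, and C1s1 691 ± 58.6 and 456 ± 174 CPM (SD, n = 3), neither called. C4bp, an inhibitor of the pathway, rose in males after natural conception (log2 fold change 1.15, adjusted p = 0.0338 by edgeR) and in the average (0.79, adjusted p = 0.0166). Its call after natural conception held in 12 of 24 alternative fits, 5 of them among the 12 with a library removed. For IVF against natural males, the median of the 14 genes was -0.16 with 0 called, including C3 (10454 ± 1164 against 13169 ± 2985 CPM; SD, n = 3) and Serping1. In the list of scavenger and efferocytosis genes, Cd36, a fatty acid and lipoprotein receptor also active in hepatocytes and endothelium, fell in males after IVF (-2.18, SE 0.48, adjusted p = 0.0391) and in the average (-1.87, adjusted p = 0.00706 by edgeR). The call after IVF was lost without IVF female 2 or 3, any IVF male or natural male 1 or 2 (adjusted p = 0.0519 to 0.183 by edgeR), and also with limma voom (0.0572), in the fit to the 6 libraries compared (0.0895) and with a GC offset (0.0689). Gas6, a bridging ligand of the TAM receptors, fell in the average (-0.87), in 3 of 12 fits with a library removed. Of 9 niche signals tested, 0 were called in any comparison.

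Median differences of other liver cell markers between IVF and natural males were mostly negative as well, and closer to 0 than that of the 10 genes apart from B cells. The median log2 fold change was -0.21 for 14 sinusoidal endothelial genes, -0.15 for 13 stellate genes, -0.25 for 11 hepatocyte genes, -0.26 for 7 cholangiocyte genes and -0.36 for 8 T and NK cell genes, with 0 called in each. For 6 B cell genes it was 0.70, and for 3 dendritic cell genes 0.23, with all 3 higher. It was -0.10 for 5 neutrophil genes (3 lower and 2 higher) and -0.0020 for 10 monocyte genes (5 lower and 5 higher). None of these was called. The median of the 6 erythroid genes tested was -0.56, with 4 lower, 2 higher and 0 called. The summed level of hepatocyte markers was 90054 to 99556 CPM in the IVF group of males and 111072 to 114929 CPM in the natural group. Endothelial markers summed to 329 to 372 CPM and 377 to 420 CPM, and stellate markers to 379 to 457 and 419 to 527 CPM. T and NK markers (2.54 to 3.20 and 3.54 to 5.73 CPM), B cell markers (2.76 to 5.71 and 2.15 to 2.75 CPM) and neutrophil markers (2.21 to 9.82 and 2.42 to 5.18 CPM) were near the floor of counting, with Mpo, Camp and Ltf at 0 in all IVF males and Pax5 at 0 in all natural males. The monocyte markers Ly6c2 (0.735 ± 0.673 and 0.452 ± 0.362 CPM) and Ccr2 (2.22 ± 2.27 and 1.03 ± 0.28 CPM; SD, n = 3) were low and not called. Gpnmb ranged from 0 to 4.67 CPM in IVF males, and Trem2 did not pass the filter on low counts. The 10 erythroid genes summed to 30.2 to 179 CPM in IVF males and 30.8 to 66.1 CPM in natural males, with Hba-a2, Hbb-bs and Hbb-bt at 0 in all of these. The part of these markers in the results of the 10 genes was not tested.

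**Figure D4:**
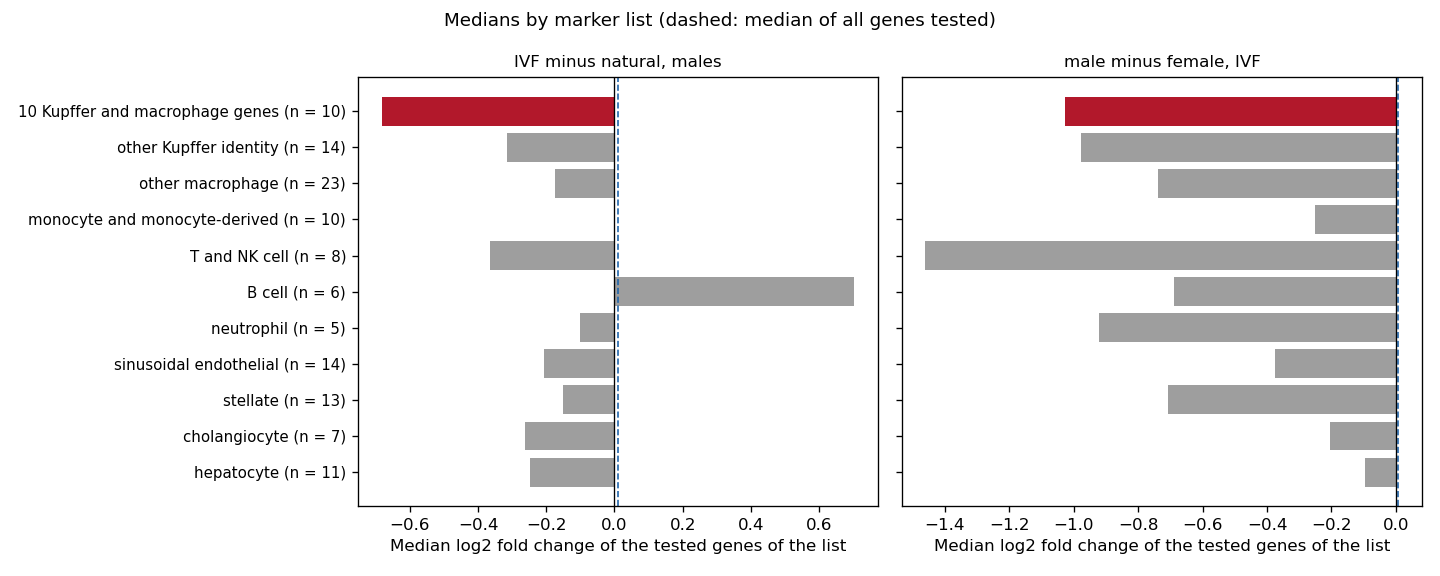
Median log2 fold change of the tested genes of each marker list, for IVF against natural in males and for male against female after IVF; n is the number of genes tested, and the dashed line is the median of all 13204 genes. The 10 genes had the lowest median of the lists drawn in the first comparison (-0.68). In the second (-1.03) only the 8 T and NK cell genes, near the floor of counting in males, had a lower one (-1.46).

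In the comparison of sexes after IVF the other cell lists ranged widely, with 0 called in each by edgeR. The medians were -1.46 for T and NK cell genes, -0.92 for neutrophil, -0.71 for stellate, -0.69 for B cell, -0.38 for endothelial, -0.25 for monocyte and -0.20 for cholangiocyte genes. They were nearer 0 for hepatocyte genes (-0.094, 6 lower and 5 higher) and dendritic cell genes (-0.080), and positive for erythroid genes (1.44, 5 of 6 higher). Averaged over both modes, the stellate genes Lhx2, Lrat, Ecm1 and Dcn, the T and NK cell genes Nkg7, Cd3g and Gzmb and the B cell genes Cd22 and Cd79b fell in males by edgeR. Lhx2 was called in 12 of 12 fits with a library removed, and Dcn in 0. Lrat was called in 2 of them, Ecm1 and Nkg7 in 3 each, Gzmb and Cd79b in 4 each, Cd3g in 8 and Cd22 in 1. Several of these genes were near the floor of counting. In IVF males Nkg7 had 0 to 2 counts, Cd3g 1 to 4 and Gzmb 1 to 3, and in natural males Cd79b had 2 to 9. Whether the shares of these cells took part in the lower Vsig4, Timd4, Clec4f and C1qb of males was not tested.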

How the data were processed

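The authors sequenced polyadenylated liver RNA and deposited a single table of whole-number counts per gene symbol. Per the submitters' processing notes, Trimmomatic 0.32, STAR 2.3.0e and featureCounts 1.5.0 and the build mm10 were used. The annotation and strand setting are not given in the sources used here. Here symbols were matched to GENCODE M21 (GRCm38) for position, exon length and GC content (23805 by symbol, 355 by synonym, 367 unmatched), and promoters came from a RefSeq table.

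Counts were modelled with the quasi-likelihood method of edgeR (version 4.0.16, under R 4.3.3), after filterByExpr by group and TMM scaling, with 1 mean per group over all 12 libraries and Benjamini-Hochberg adjustment over 13204 genes at 0.05. Standard errors are |log2 fold change|/√F. Levels are TMM-scaled CPM. Log2 CPM used a prior count of 2. Replicates differed by more than counting noise (chi-square per degree of freedom at least 80.7), so none was counted as a duplicate. Code was tested on simulated counts.

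The 10 genes, the other lists and the tests were chosen with earlier results of these data known. All 10 are named. Of the other lists, the 3 largest called increases and decreases per comparison (all 4 where a list had 4) and a set of 22 genes chosen by name are reported. Alternatives were other normalizations, filters, tools (DESeq2 1.42.0, limma 3.58.1), a loess offset on GC content (span 0.5), leaving out Rn45s, each library or the 2 smallest, and fits to the groups compared. Hepatocyte and B cell lists lacked 1 gene each, not analysed here.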

Additional observations from a re-analysis of the deposited data

How the results depend on the processing

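No paired analysis was possible because replicate numbers follow accession order and pair nothing, and the title codes, of which 1 beginning is shared by IVF female 1 and IVF male 2, are not explained by the labels. For IVF against natural in either sex, for the average and for the interaction, 0 members were called under every alternative run, and the medians kept their sign. In males the median ran from -0.85 to -0.52. The number called for sex after IVF (3) was 7 with DESeq2, 6 at an adjusted p under 0.1, 1 with only the 6 libraries compared, 5 with the GC offset, 7 with the GC offset and without the 2 smallest libraries (chosen after the data were seen), and 1 to 6 when 1 library was left out. Averaged over modes (4) it was 1 to 4 when 1 library was left out. After natural conception (0) it was 1 with library size alone, DESeq2, an adjusted p under 0.1 and the GC offset, and 0 to 1 when 1 library was left out. There the median moved from -0.17 to -0.48 with library size alone, which moved the median of all genes to -0.34 in that comparison, -0.22 for sex averaged over both modes, -0.10 for sex after IVF, 0.14 for IVF in males and 0.23 for the interaction. The median correlation between members moved from 0.34 to 0.604 without the 2 smallest libraries.

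Directions reversed only for uncalled values. For sex after natural conception these were Adgre1 (0.025 without the 2 smallest libraries, 0.0069 with the GC offset as well, -0.33 to 0.038 leaving out 1 library), C1qa (-0.27 with library size alone, -0.25 and -0.15, -0.23 to 0.26), C1qc (-0.22, -0.088 and -0.0061, -0.072 to 0.22), Cd5l (-0.14 with library size alone), Csf1r (-0.44 to 0.039 leaving out 1 library) and Marco (-0.34 with library size alone, -0.093 with the GC offset, -1.31 to 0.46 leaving out 1 library). For IVF in females, leaving out 1 library gave C1qa -0.31 to 0.36, C1qc -0.092 to 0.34, Csf1r -0.0097 to 0.49, Timd4 -0.34 to 0.997 and Vsig4 -0.18 to 0.33. Vsig4 was also at -0.064 without the 2 smallest libraries and -0.11 with the GC offset as well, and Marco at 0.071 with limma voom. Leaving out 1 library, Marco ran from -1.87 to 0.13 for IVF in males and from -1.47 to 0.54 for the interaction, and for sex averaged over both modes it was at 0.18 without the 2 smallest libraries, with and without the GC offset. The cause was not tested. Levels per length moved by less than 1 SD with library size alone. A fit to only the groups compared was not run for the interaction and the averages, which use all 12 libraries.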
